A study of Mus musculus with 8 samples.

Results

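Of the 6315 circular RNAs (circRNAs) listed in mouse kidney, 458 had no count in any of 3 control libraries and a count in 2 or more of 5 libraries from injured kidneys. A further 96 had no count in the 5 injured libraries and a count in 2 or more controls. These are called here the injured class and the control class, and their 554 members were chosen by their own counts, so every count of a member between control and injured libraries is a description and not a test. The classes took 7.25% and 1.52% of the listed circRNAs. The rules are not mirror images, since one asks for 2 of 5 libraries and the other for 2 of 3, so the sizes of the classes were not compared with each other.

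The study collected total RNA from kidneys of C57BL/6L mice aged 8 to 10 weeks, the strain as the labels spell it. The 3 control libraries carry titles that call them wild type, while the design text speaks of sham-operated animals. Injury was unilateral ureteral obstruction (UUO, 3 libraries at day 5) or a group called acute-chronic (AC, 2 libraries at day 5), where the design text names ischaemia and reperfusion. No genetic change or agent is given for any group. The labels do not say whether each library came from a separate animal or from a pool, so each p-value sets a difference against the variation among libraries, part of which can be technical. In whole kidney, fewer cells of a type and less of a circRNA per cell cannot be told apart.

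A circRNA is a closed loop made when a downstream splice donor joins an upstream splice acceptor of the same transcript. It is recognised in sequencing by reads across that back-splice junction, carries the sequence of its host gene's exons, and has no free ends, so it often outlasts the linear transcript. One host gene can give several circRNAs with different junctions. Junction reads are a small part of a total RNA library, so most circRNAs are counted only a few times.

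Counts summed over all circRNAs ranged from 43971 to 65145 in the controls and from 40865 to 57754 in the injured libraries, and 1 count was worth 18.9 to 29.2 CPM, the count scaled to a common library size. The number of circRNAs with a count was 3584 ± 205 (SD, n = 3) in control and 3521 ± 118 (SD, n = 5) in injured libraries (two-sided exact permutation p = 0.536, where the smallest p that 5 against 3 libraries allow is 0.0357). The median circRNA had 14 counts over the 8 libraries, and 1449 of the 6315 had a count in each of them. Members of the injured class held 1.28% to 1.65% of the counts of an injured library, and members of the control class 0.328% to 0.410% of those of a control library.

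The host promoters of the 4 most abundant injured-class circRNAs that had a count in all 5 injured libraries are shown, because these members had the highest levels among those counted in every injured library. They run from 250 bases before to 50 after a RefSeq start, in build GRCm38.p6. The deposited circRNAs were made with another build, so their own coordinates and sequences were not used here. Osmr encodes the oncostatin M receptor (chr15:6874264-6874563, minus strand), Espl1 the protease separase (chr15:102296043-102296342, plus strand), Map1s a microtubule-associated protein (chr8:70905724-70906023, plus strand, listed under the older symbol Mtap1s) and Met the receptor of hepatocyte growth factor (chr6:17463707-17464006, plus strand). Capitals mark matches to a motif on either strand.
Osmr: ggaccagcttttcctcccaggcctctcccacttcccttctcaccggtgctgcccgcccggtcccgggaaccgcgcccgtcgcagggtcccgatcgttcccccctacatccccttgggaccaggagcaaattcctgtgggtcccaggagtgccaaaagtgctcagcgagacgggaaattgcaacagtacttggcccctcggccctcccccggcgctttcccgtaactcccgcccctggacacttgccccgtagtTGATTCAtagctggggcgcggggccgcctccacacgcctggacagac
Espl1: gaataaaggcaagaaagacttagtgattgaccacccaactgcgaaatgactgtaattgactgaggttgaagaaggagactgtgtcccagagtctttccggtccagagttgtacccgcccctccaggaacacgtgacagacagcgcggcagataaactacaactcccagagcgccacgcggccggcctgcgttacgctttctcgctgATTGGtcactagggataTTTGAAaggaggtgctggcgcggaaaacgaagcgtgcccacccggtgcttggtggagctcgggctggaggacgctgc
Map1s: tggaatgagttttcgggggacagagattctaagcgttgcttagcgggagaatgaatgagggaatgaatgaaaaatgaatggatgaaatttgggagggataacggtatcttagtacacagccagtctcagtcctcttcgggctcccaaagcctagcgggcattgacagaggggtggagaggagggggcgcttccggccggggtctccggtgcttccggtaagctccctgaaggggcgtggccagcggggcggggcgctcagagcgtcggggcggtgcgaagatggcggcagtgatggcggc
Met: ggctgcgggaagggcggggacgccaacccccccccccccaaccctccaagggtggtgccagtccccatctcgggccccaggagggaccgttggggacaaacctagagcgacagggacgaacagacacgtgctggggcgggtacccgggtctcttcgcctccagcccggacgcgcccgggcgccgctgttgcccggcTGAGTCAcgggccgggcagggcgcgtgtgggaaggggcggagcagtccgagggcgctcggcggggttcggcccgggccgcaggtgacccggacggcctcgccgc

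The motifs searched were the AP-1 site TGANTCA, the STAT site TTCNNNGAA, the CCAAT box and the CHR element TTTGAA. AP-1 and STAT factors act downstream of cytokine and growth factor receptors, and the CCAAT box and CHR element are common in promoters of cell division genes. The AP-1 site matched in Osmr and Met, the CCAAT box and the CHR element matched at separate places in Espl1, and Map1s held none of the 4. Of 32851 promoters of 27025 genes, 7.81% held the AP-1 site, 8.30% the STAT site, 37.4% the CCAAT box and 17.9% the CHR element. Of 441 promoters of 320 injured-class hosts that could be matched by symbol, 6.12%, 6.58%, 30.2% and 10.2% did, in the same order. The 118 promoters of 77 control-class hosts gave 6.78%, 5.93%, 28.8% and 13.6%. A match says only that the letters occur in this window.

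The size of each class was set against the same count with other libraries in the control place. There are 56 ways to put 3 of the 8 libraries there, of which the labelled one is 1 and 55 are others. With the other placements, 371 to 548 circRNAs (median 439) were at 0 in the 3 and above 0 in 2 or more of the remaining 5, against 458 as labelled, and 20 of the 55 gave as many or more. For the control class the other placements gave 71 to 142 (median 97), against 96 as labelled, and 28 of the 55 gave as many or more. Both labelled counts therefore lay inside the range of the other placements, which differed in depth. These counts describe the 8 libraries and carry no p-value, and each other placement mixes control and injured libraries.

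Under stricter rules the labelled counts also lay inside the range of the other placements. Above 0 in all 5 injured libraries and 0 in the 3 controls were 12 circRNAs, against 3 to 19 (median 9) with other placements, of which 18 gave as many or more. Above 0 in all 3 controls and 0 in the injured libraries were 7, against 5 to 26 (median 11), and 52 of the 55 gave as many or more. With a summed count of 10 or more asked for, the injured class held 109 (other placements 70 to 144, median 99) and the control class 10 (other placements 5 to 22, median 12). The 3 control libraries held 166682 counts and the 5 injured 245650, and 8 other placements put a larger total in the 3. Each of those 8 held control replicate 2, the deepest library. Under the rule itself they gave 374 to 426 for the injured class and 86 to 142 for the control class. With a summed count of 10 or more they gave 70 to 99 and 7 to 22. With all libraries of a side asked for they gave 3 to 8 and 8 to 26. The labelled injured-class counts lay above all of these and the labelled control-class counts within or below. The part of depth was not tested.

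**Figure D1:**
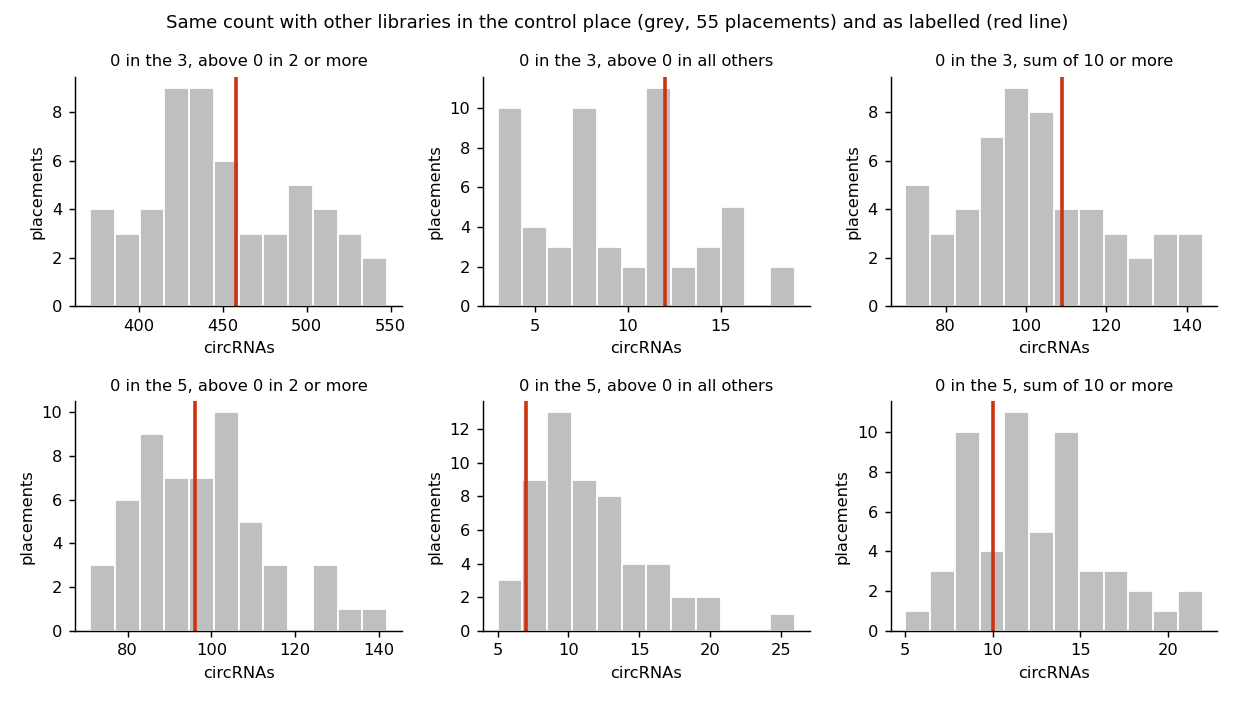
Histograms of the number of circRNAs (horizontal axis) over the 55 other ways to place 3 of the 8 libraries in the control place (vertical axis, number of placements), with the labelled count as a red line. The upper panels count circRNAs at 0 in the 3 libraries and the lower panels those at 0 in the 5. The labelled counts, 458 and 96 under the rule itself, lie inside the grey range in every panel.

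Detection in a library that took no part in the choice was measured next. Each library was left out in turn, the rule was applied to the other 7, and the share of the chosen circRNAs with a count in the library left out was taken. CircRNAs chosen as injured class were found again in 32.5% ± 2.39 (SD, n = 5) for injured libraries left out, with shares from 29.1% to 34.6%. In control libraries left out, where every control chosen on was at 0, 35.0% ± 6.75 (SD, n = 3) of the injured class had a count, with shares from 30.4% to 42.8%. The difference was -2.52 percentage points (two-sided exact permutation p = 0.571). The sets behind the 2 sides differ. Leaving out a control chose 658 to 800 circRNAs, at 0 in 2 controls, and leaving out an injured library 330 to 354, at 0 in all 3. The p sets shares of unlike sets against each other, so nothing is read from it. A left-out control thus held counts for circRNAs that the other controls lacked, in a share whose range took in that of the injured libraries except AC replicate 2.

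For the control class, the share was 19.2% ± 1.88 (SD, n = 3) in control libraries left out, where each share was 7 circRNAs out of 34 to 41 chosen. The rule makes these the same 7 each time, those with a count in all 3 controls and none in the injured libraries. The 3 control shares are thus not replicates, and their SD reflects only the number chosen. In injured libraries left out it was 32.5% ± 4.27 (SD, n = 5). Shares did not overlap between the sides, at 17.1% to 20.6% and 29.4% to 39.6%, and the difference of 13.3 points had an exact permutation p of 0.0357, the smallest this design allows. As a description only, the share was lower in left-out libraries of the side that defined the class. The sets behind the shares differ, since leaving out a control leaves 2 libraries that must both have a count, and leaving out an injured library leaves 4 that must be at 0. The sets also overlap, so the shares are not independent. With a summed count of 10 or more the difference was 8.43 points (exact permutation p = 0.393), and the sets differed in the same way.

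To give both sides the same set, 1 control and 1 injured library were left out together, in all 15 pairs, an alternative chosen after seeing the data. The injured class of 494 to 633 circRNAs was then found in 37.2% on average in the left-out control and 38.0% in the left-out injured library, a difference of 0.762 points that ran from -10.5 to 6.48 and was above 0 in 10 of the 15 pairs. The control class of 52 to 71 circRNAs was found in 31.0% and 38.7%, and the injured library had the higher share in 14 of the 15 pairs and the control in 0. With a summed count of 10 or more the shares were 50.0% and 53.0% for the injured class and 52.6% and 53.6% for the control class. The pairs share libraries, so no p-value was computed.

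**Figure D2:**
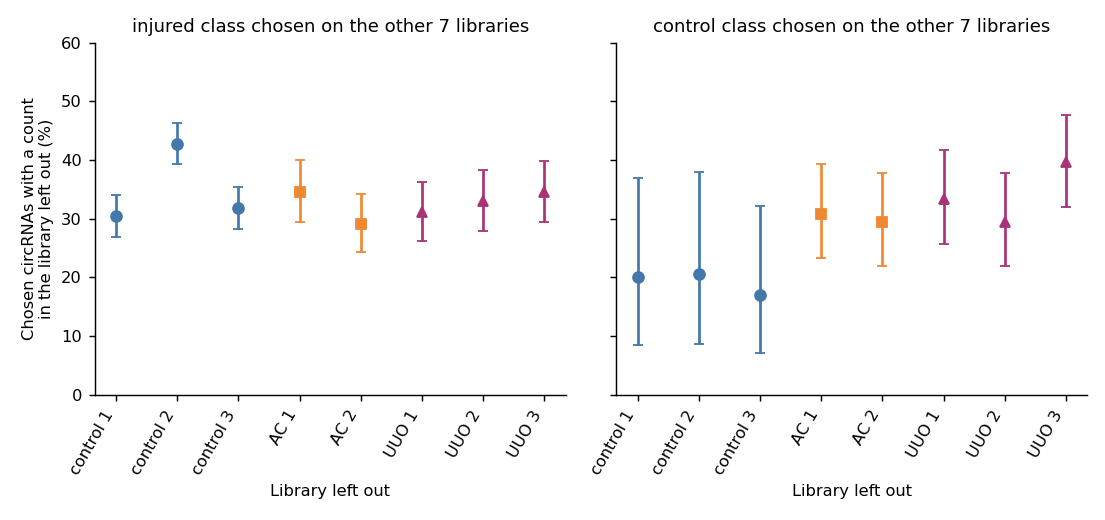
Share of chosen circRNAs with a count in the library left out (vertical axis, percent) for each of the 8 libraries (horizontal axis), with 95% exact binomial intervals that cover counting error only; the left panel is the injured class and the right panel the control class. In the left panel control and injured libraries overlap, with control replicate 2, the deepest library, highest at 42.8%. In the right panel the 3 controls lie between 17.1% and 20.6%, below the 5 injured libraries, and rest on the same 7 circRNAs. In both panels the sets chosen differ between control and injured libraries left out.

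Most members rested on few counts. In the injured class the median summed count was 6 with quartiles of 4 and 9 and a range from 2 to 106, and 40 members had counts of 1 only. The number with a count in exactly 2, 3, 4 and 5 injured libraries was 297, 106, 43 and 12. In the control class the median summed count was 5, the range 2 to 40, and 89 members had a count in exactly 2 libraries and 7 in all 3. For a group at 0 throughout, a floor of 3 counts over the whole group, 21.6 CPM for the controls and 14.5 CPM for the injured libraries, turns a mean level into a nominal lower bound of the fold. That bound was above 1 for 310 of the 458 and for 90 of the 96, and it reached 5 for 12 and 10. It allows for counting error in the group at 0 and for nothing else, and so not for the choice of members by these same counts. The bound was not computed for other placements of the libraries, so it is a description here and for each member below.

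Of the cytokine and growth factor genes, the circRNA of Nrg1, a ligand of ERBB receptors (mmu_circ_0014776), had the highest counts of the injured class. It had 24 and 0 counts in the AC libraries and 23, 41 and 18 in the UUO libraries. The injured mean was 497 ± 348 CPM (SD, n = 5), 23.0 times the control floor, and AC replicate 2 was at 0 like the controls. The circRNA of Osmr, whose product receives the cytokine oncostatin M (mmu_circ_0005739), had 11 and 7 counts in AC and 13, 12 and 18 in UUO. Its mean was 290 ± 66.6 CPM (SD, n = 5), 13.4 times the floor, and every injured library had a count. The circRNA of Met (mmu_circ_0013213), a receptor tyrosine kinase of tubule repair, had 6 and 12 counts in AC and 4, 10 and 7 in UUO. Its mean was 195 ± 99.3 CPM (SD, n = 5), 9.02 times the floor. The Nrg1 and Osmr circRNAs are the only ones listed for those genes. Met had 4 others, with 85 counts in control, 95 in AC and 108 in UUO.

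The circRNA of Espl1 (mmu_circ_0000652), whose product separase cuts cohesin so that sister chromatids part, had 13 and 9 counts in AC and 9, 16 and 12 in UUO. Its level was 285 ± 57.2 CPM (SD, n = 5), 13.2 times the floor, and the AC and UUO libraries overlapped. Microtubule genes were the hosts of the next members. The circRNA of Clasp2, which stabilises microtubule plus ends (mmu_circ_0015332), had 11 and 16 counts in AC and 19, 10 and 0 in UUO. Its mean was 288 ± 198 CPM (SD, n = 5), 13.4 times the floor. UUO replicate 3 was at 0 for it. The circRNA of Mtap1s (mmu_circ_0014943) had 13 and 10 counts in AC and 9, 6 and 3 in UUO, at 206 ± 103 CPM (SD, n = 5), with the AC counts above the UUO counts. Another Clasp2 circRNA, mmu_circ_0001850, which is no member, had 3, 0 and 1 counts in control, 0 in both AC libraries and 20, 10 and 17 in UUO. It passed the edgeR filter through the UUO libraries, so these counts are a description with no test.

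Among regulators of small GTPases, the circRNA of Dennd1b, an activator of Rab35 in membrane traffic (mmu_circ_0008223), had 35 and 19 counts in AC and 0 in all 3 UUO libraries as in the 3 controls. The AC mean was 689 ± 191 CPM (SD, n = 2). The circRNA of Rgnef, now Arhgef28, an exchange factor for RhoA (mmu_circ_0004932), had 0 and 4 counts in AC and 4, 16 and 4 in UUO. The circRNA of Dock10, an exchange factor for Cdc42 and Rac (mmu_circ_0000055), had 7 and 0 in AC and 2, 5 and 12 in UUO. Rgnef and Dock10 each had 1 AC library at 0 and means of 135 ± 141 and 117 ± 98.2 CPM (SD, n = 5), so their spread was about as large as their level.

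The cytoskeletal linkers of the dystrophin family gave 2 of the 15 highest members. Utrn, which encodes utrophin (mmu_circ_0002025), had 3 and 9 counts in AC and 0, 10 and 3 in UUO. Dmd, which encodes dystrophin (mmu_circ_0016387), had 0 and 10 in AC and 6, 7 and 0 in UUO. The remaining members of the 15 were circRNAs of Colec12, a scavenger receptor with a C-type lectin domain (mmu_circ_0007591, 0 and 9 in AC, 7, 4 and 6 in UUO), and of Ptpn9, a tyrosine phosphatase (mmu_circ_0015707, 2 and 4 in AC, 0, 9 and 7 in UUO). Gucy1a2, a subunit of soluble guanylate cyclase (mmu_circ_0015550), had 8 and 0 in AC and 2, 2 and 10 in UUO. Ccny, a membrane-bound cyclin (mmu_circ_0007586), had no count in AC and 9, 12 and 0 in UUO. Of the 15, only Osmr, Espl1, Mtap1s and Met had a count in every injured library.

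**Figure D3:**
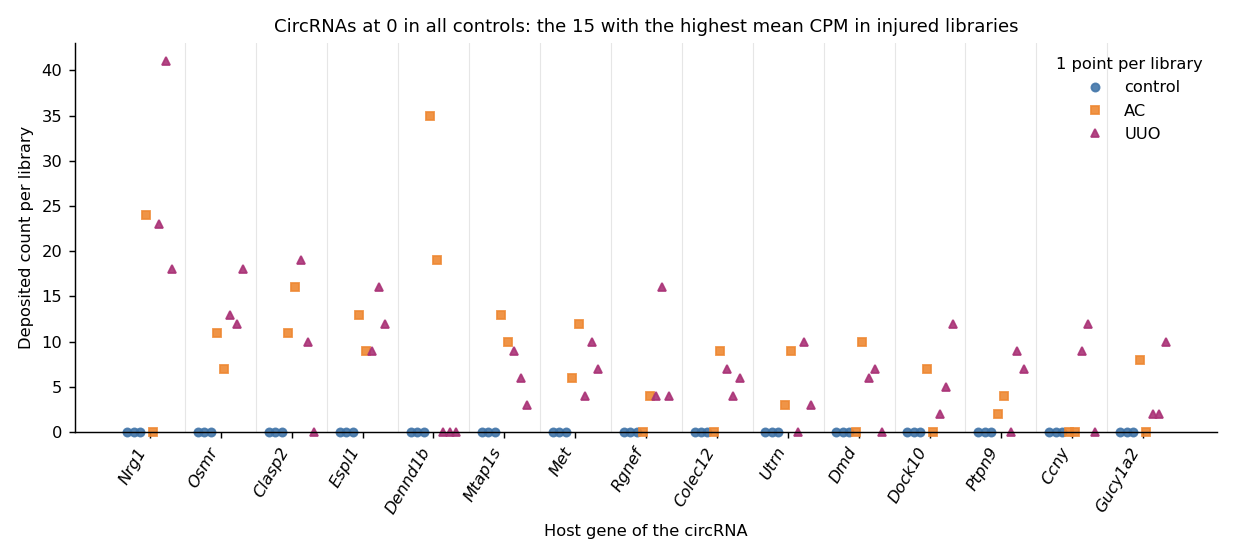
Deposited counts (vertical axis) of the 15 injured-class circRNAs with the highest mean CPM (horizontal axis, by host gene), 1 point per library for 3 control, 2 AC and 3 UUO libraries. All control points are at 0 by the choice of members. Injured libraries at 0 are seen for Nrg1, Clasp2, Dennd1b and all circRNAs from Rgnef to Gucy1a2.

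Another 8 circRNAs had a count in all 5 injured libraries and none in the controls. The one from Arid1b, a subunit of BAF chromatin remodelling complexes (mmu_circ_0006833), had 4 and 1 counts in AC and 3, 3 and 10 in UUO. Sh2d4b, an SH2 domain gene (mmu_circ_0005233), had 3, 6, 2, 3 and 5 in the same order of libraries, and Ccdc41, now Cep83, a centriole appendage protein (mmu_circ_0002590), had 8, 1, 3, 3 and 3. The other 5 came from Tmeff1, Homer3, Cobl, Axin1 and Gnb2l1, with summed counts of 17, 13, 11, 10 and 10. Axin1 encodes a scaffold of the complex that degrades beta-catenin, and Gnb2l1 the ribosomal scaffold RACK1.

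The rule pooled the injury models and did not use the division between them, but a member had to have counts in 2 or more of these same libraries, so values of single members are a description. Of the 458 members, 317 had counts in both models, 108 in UUO libraries only and 33 in AC libraries only, where UUO has 3 libraries and AC 2. The share of members with a count was 52.6% and 46.7% in the AC libraries and 46.7%, 50.9% and 52.8% in the UUO libraries. These libraries chose the members, so the shares are a description with no test. In edgeR's quasi-likelihood test of UUO against AC over 1471 circRNAs, 0% passed an adjusted p of 0.05, none of the 6 injured-class members tested among them. At an unadjusted p under 0.05 there were 82, and DESeq2 called 2 circRNAs, from Spast and Frmd4b, neither a member. With no filter 4 were called and in a fit of UUO and AC alone 1. Both of these settings called the injured-class circRNA of Dennd1b, which was chosen through its AC counts, so nothing is read from that.

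The injured-class circRNA of Dennd1b became a member and passed the filter through the AC libraries alone, so its counts in AC and UUO are given with no test. For Osmr the log2 difference of UUO from AC was 0.50 with a standard error of 0.915, and for Nrg1 1.12 with a standard error of 0.908. The Nrg1 difference rested on the AC libraries, with 24 and 0 counts. It was 0.19 without AC replicate 2, 0.72 without UUO replicate 2 and 2.02 with the replicate block, and the fit gave 7.77 without AC replicate 1, where the remaining AC library is at 0. Osmr and Nrg1 became members and passed the filter through these same injured libraries, so both differences are a description and no test is read from them.

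Against control, only 6 of the 458 injured-class members and 2 of the 96 control-class members had counts high enough for the edgeR filter, and they passed through the group in which they were present. For UUO against control 3 of the 6 were past an adjusted p of 0.05 and higher, where 2.86% of the 1471 tested were higher and 1.50% lower. For AC against control it was 4 of the 6, where 1.90% were higher and 1.43% lower. For both injuries together it was 4 of the 6, where 2.79% were higher and 2.45% lower. Neither control-class member passed in any of these. The rule used these contrasts, so nothing is read from the counts. The totals called depended on single libraries, falling from 64 to 40 and 25 for UUO without control replicates 2 and 3, and to 26, 10 and 15 without UUO replicates 1 to 3. For AC against control the total fell from 49 to 11 without control replicate 3, to 13 and 15 without AC replicates 1 and 2, and to 32 without UUO replicate 2. For both injuries together it fell from 77 to 44 without control replicate 3 and 42 without UUO replicate 2.

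In the control class the highest mean belonged to the circRNA of Ndfip1, an adaptor of NEDD4-family ubiquitin ligases (mmu_circ_0007321), with 0, 20 and 20 counts in control replicates 1 to 3. Its mean was 264 ± 229 CPM (SD, n = 3), 18.2 times the injured floor. Map4k2, a kinase upstream of JNK signalling (mmu_circ_0000931), had 8, 0 and 26 counts, and Aff4, a scaffold of the super elongation complex (mmu_circ_0000261), had 13, 0 and 17. Each of these 3 had a control at 0, as in the injured libraries. The circRNA of Smarca2, the ATPase BRM of BAF complexes (mmu_circ_0007642), was the most even, with 6, 8 and 7 counts. Its mean was 152 ± 7.43 CPM (SD, n = 3), 10.4 times the floor.

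The other 6 of the 10 highest were lower and mostly uneven. Wdr7, a gene of synaptic vesicle acidification (mmu_circ_0007443), had 3, 14 and 2 counts, and Vps8, a subunit of the endosomal CORVET complex (mmu_circ_0006156), had 4, 6 and 1. Ncoa6, a nuclear receptor coactivator (mmu_circ_0009475), had 1, 14 and 0. Dennd1b (mmu_circ_0000082) had 0, 4 and 9, H13, the signal peptide peptidase (mmu_circ_0009441), had 7, 0 and 2, and Snx6, a sorting nexin (mmu_circ_0004074), had 5, 5 and 0. Bounds of the fold for these 6 ran from 5.22 to 8.84. The 7 circRNAs with a count in every control were those of Smarca2, Wdr7, Vps8, Abca5, Jarid2, Pigo and Ddhd2.

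**Figure D4:**
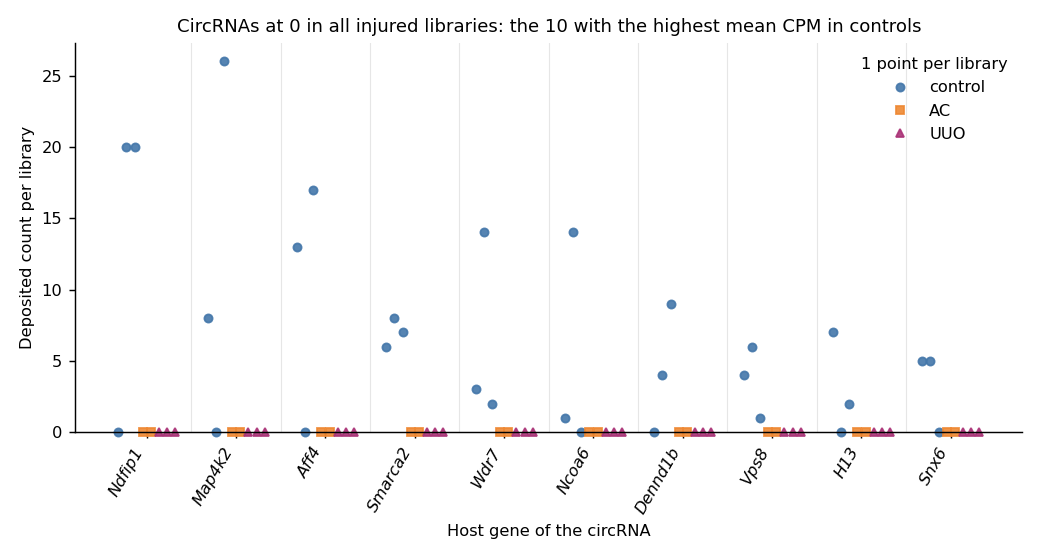
Deposited counts (vertical axis) of the 10 control-class circRNAs with the highest mean CPM (horizontal axis, by host gene), 1 point per library. All AC and UUO points are at 0 by the choice of members. Of the 10, Smarca2, Wdr7 and Vps8 had a count in all 3 controls.

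Host genes were then examined for their other circRNAs, which the rule did not use. The injured class came from 401 host genes, 1 member having none listed, and the control class from 92. For 262 of the 401 (65.3%), other circRNAs of the same gene had counts in the controls, and for 64 of the 92 (69.6%) other circRNAs had counts in injured libraries. In most hosts, then, what was at 0 was a particular circle and not every circRNA of the gene. No such share was computed for hosts of other circRNAs, so it is not read as particular to the members. A host of either class had a median of 3 listed circRNAs, against 1 over all 2843 host genes. A gene with more listed circRNAs has more chances to hold a member, so this difference is not read as a trait of the classes. The member was the only listed circRNA for 116 and 24 hosts, Nrg1, Osmr, Espl1, Map1s, Colec12, Ndfip1 and H13 among them.

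Of the other circRNAs of injured-class hosts, 230 passed the filter. For UUO against control 2.61% of these were called higher and 0.435% lower with a median log2 difference of 0.142, where all tested circRNAs gave 2.86%, 1.50% and 0.016. For AC against control 2.17% were higher and 1.74% lower with a median of 0.082, where all tested gave 1.90%, 1.43% and -0.015. The 67 of control-class hosts gave 1.49% higher and 1.49% lower for UUO, and 0% in either direction for AC. The counts behind these shares are small, at most 6 circRNAs in a direction. A circRNA of Gucy1a2 (mmu_circ_0001741) was among those called, with 12, 3 and 16 counts in control, 11 and 14 in AC and 31, 37 and 44 in UUO (log2 difference of UUO from control 1.89, edgeR adjusted p = 0.0426). A circRNA of Smarca2 (mmu_circ_0007648) had 12, 80 and 39 counts in control, 9 and 11 in AC and 10, 12 and 18 in UUO, so control replicate 1 lay within the range of the injured libraries. Its log2 difference from control was -1.53 for UUO and -1.74 for AC (edgeR adjusted p = 0.104 and 0.157), and -1.64 for both injuries together (adjusted p = 0.0392).

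There were 49 hosts with 2 or more injured-class members. Kcnt2, Myo9a, Nbea, Adgrl3 and Specc1l had 3 each. Members of both classes came from 13 hosts, namely Celf2, Ccdc46, Ddhd2, Dennd1b, Mdn1, Nfatc3, Osbpl11, Ptprk, Rabep1, Snx6, Srbd1, Tlk1 and Ubn2. Celf2, a regulator of splicing, gave mmu_circ_0010105 with 1, 5 and 0 counts in control and mmu_circ_0010094 with 4 and 4 in AC and 0, 2 and 0 in UUO. Tlk1, a chromatin kinase, gave mmu_circ_0010150 with 0, 2 and 4 in control and mmu_circ_0010149 with 5 and 4 in AC and 1, 0 and 0 in UUO.

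Dennd1b showed this most widely, with 9 listed circRNAs. Its abundant circles were present in every library: mmu_circ_0000081 had 68, 67 and 73 counts in control, 74 and 35 in AC and 55, 51 and 74 in UUO, and mmu_circ_0000083 had 67, 99 and 82, then 60 and 49, then 59, 89 and 65. Neither passed in any comparison, with edgeR adjusted p from 0.666 to 1. Beside them stood the injured-class circle seen in AC alone and the control-class circle seen in control replicates 2 and 3 alone. The sources used here do not give the way in which reads shared by circles of 1 gene were assigned.

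**Figure D5:**
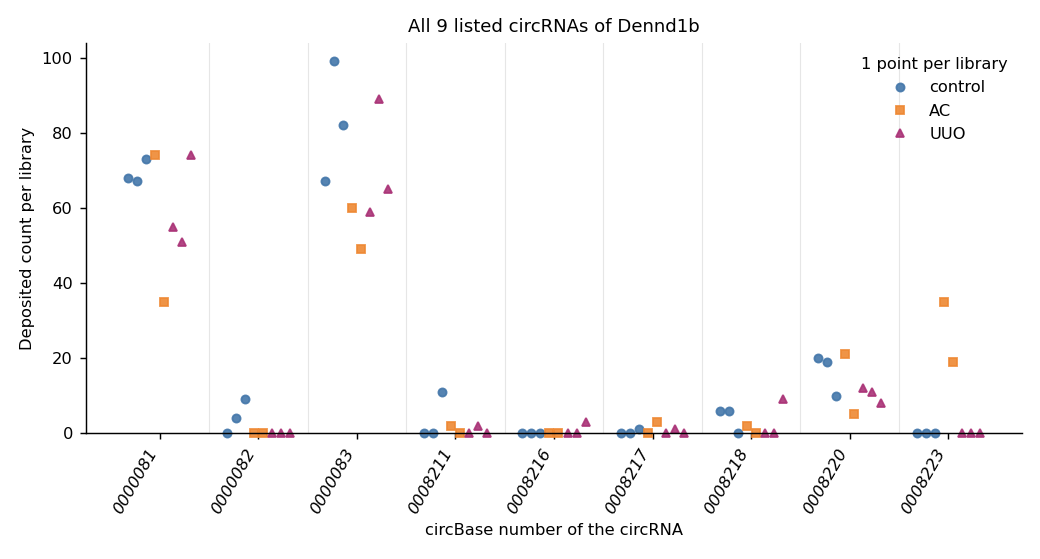
Deposited counts (vertical axis) of the 9 listed circRNAs of Dennd1b (horizontal axis, circBase number), 1 point per library. The circles mmu_circ_0000081 and mmu_circ_0000083 have 35 or more counts in all 8 libraries, while mmu_circ_0008223 has counts in the 2 AC libraries only and mmu_circ_0000082 in 2 controls only.

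Hosts were grouped by function, as a description beside the 7.25% and 1.52% of all listed circRNAs that fell in each class. Of 47 circRNAs of cell division and DNA replication genes 7 (14.9%) were in the injured class and none in the control class. Beside Espl1 they included Smc4, a condensin subunit (mmu_circ_0010768, 0 and 3 in AC, 5, 0 and 0 in UUO), and Kif23, a motor of cytokinesis (mmu_circ_0015763, 4 and 4 in AC, 0 in UUO). Only 1 of the 7, that of Espl1, had a summed count of 10 or more. Of 61 circRNAs of cytokine and growth factor genes 8 (13.1%) were in the injured class, among them Nrg1, Osmr, Met and Acvr1b, an activin receptor (mmu_circ_0005514, 0 and 2 in AC, 3, 5 and 0 in UUO), and 5 of the 8 had a summed count of 10 or more. The control class held 1 of the 61, from the insulin receptor gene Insr.

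Cilium, centrosome and microtubule genes gave 24 of 207 (11.6%) to the injured class and 4 (1.93%) to the control class. Clasp2, Mtap1s, Clip2 and Ccdc41 had the highest totals. Immune cell genes had 10 listed circRNAs, of which 2 were in the injured class, from Dock10 and the lymphoid factor Ikzf1, the latter with 1 count in each of 2 UUO libraries. Matrix, adhesion and actin genes gave 3 of 64 (4.69%) to the injured class, from Adam10, Myh10 and Cd2ap, and none to the control class.

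Transporter and channel genes were taken by symbol prefix (Slc, Abc, Atp, Kcn and the like) and not by expression in tubules. The list also held Stk39, a kinase gene without such a prefix and a control-class host, which was counted under kinases too. It gave 13 of 198 (6.57%) and 5 (2.53%). Kcnt2, a potassium channel gene, was highest in the injured class (mmu_circ_0008232, 0 and 6 in AC, 0, 7 and 6 in UUO). Abca5, a transporter gene, was highest in the control class (mmu_circ_0002760, 1, 2 and 6 in control). Mitochondrial and fuel metabolism genes gave 1 of 49 (2.04%) to the injured class and 2 (4.08%) to the control class, from Pcca, a subunit of propionyl-CoA carboxylase, and Acsl3. The Pcca circRNA (mmu_circ_0005017) had 0, 2 and 8 counts in control.

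Kinases and phosphatases gave 26 of 356 (7.30%) to the injured class, the ubiquitin pathway 21 of 292 (7.19%) and transcription factors and chromatin 22 of 439 (5.01%). Small GTPase regulators gave 15 of 302 (4.97%), membrane traffic 14 of 290 (4.83%) and RNA binding and splicing 9 of 199 (4.52%). Their control-class shares ran from 0.503% to 1.82%. Foxo1, a transcription factor of the insulin pathway (mmu_circ_0010680), had 3 and 0 in AC and 6, 4 and 4 in UUO, and Gsk3b, a kinase of glycogen and Wnt signalling (mmu_circ_0006260), had 9 and 0 in AC and 0, 4 and 0 in UUO. The lists share genes, and a host with several circles counts once for each, so members of a list are not independent.

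Rows just outside the rule had like counts. Exactly 1 count on the side that should be at 0 kept 214 circRNAs out of the injured class and 80 out of the control class. The circRNA of Nav3, a microtubule-binding navigator gene (mmu_circ_0000211), had 0, 0 and 1 counts in control, 10 and 10 in AC and 21, 16 and 8 in UUO. The circRNA of Wbscr16 (mmu_circ_0001421) had 0, 1 and 0 in control, 0 and 12 in AC and 23, 6 and 14 in UUO. On the other side, Tc2n (mmu_circ_0003659) had 12, 7 and 6 in control and 1 count in AC replicate 2 only. A count in 1 injured library only kept out 765, among them a circRNA of Sltm (mmu_circ_0001803) with 90 counts in AC replicate 2 and 0 in the 7 other libraries, and a count in 1 control only kept out 484, none with more than 10 counts. Without control replicate 2, the deepest library, the rule gave an injured class of 800 in place of 458. The control class became 159 in place of 96 without UUO replicate 3, and 35, 34 and 41 without control replicates 1 to 3, where both remaining controls must have a count.

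The deposited table carries a mark of circBase evidence for 17.2% of the circRNAs. The mark was present for 6.99% of the injured class and 11.5% of the control class. Among circRNAs with a summed count under 10, the share was 7.16% in the injured class, 9.30% in the control class and 7.98% in those of neither class. At 10 or more it was 6.42% of 109 injured-class members, 30.0% of 10 control-class members and 24.2% of 3594 others. Counts were not matched above 10, where members reached at most 106 in the injured class and 40 in the control class. The mark was more common at higher counts among the others, so the gap is not read as a trait of the classes. These shares are a description with no test, and the sources used here do not say what the mark records.

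Kidney cell markers could be followed only where a circRNA was listed. Over marker genes of 10 cell types, circRNAs were listed for Lrp2, Klhl3, Flt1 and Tek, and for none of the thick ascending limb, collecting duct, podocyte, fibroblast, macrophage, lymphocyte or neutrophil markers, so those cell types could not be checked. Lrp2, the proximal tubule receptor megalin, had 9, 92 and 47 counts in control, 26 and 21 in AC and 27, 25 and 13 in UUO. The 3 circRNAs of Klhl3, a distal tubule gene, summed to 77, 143 and 96 in control, 15 and 24 in AC and 14, 29 and 18 in UUO. The circRNA of Tek, an endothelial receptor (mmu_circ_0011867), was an injured-class member with 0 and 4 counts in AC and 1, 2 and 3 in UUO. Of the endothelial gene Flt1, mmu_circ_0012352 had 5, 3 and 6 counts in control, 0 and 5 in AC and 0, 6 and 7 in UUO, and mmu_circ_0012350 had 2 counts in control replicate 2 only. All endothelial circRNAs together summed to 5, 5 and 6 in control, 0 and 9 in AC and 1, 8 and 10 in UUO, so the groups overlapped. The part of cell composition in either class was not tested.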

How the data were processed

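Total RNA of 3 control, 2 AC and 3 UUO kidney libraries was counted per circRNA. Whole-number counts were deposited by the authors without normalization. The authors also deposited a signal table, in which each value is the count divided by 1 constant per library; 100% of its values gave whole counts when multiplied by that constant (tolerance 0.01), and the signal served only for that check. Build mm9 was used with the tools HISAT2 and StringTie, per the submitters' processing notes. The sources used here name no circRNA caller and no minimum of reads. Of the source transcripts, 91.2% were found in the GRCm38 reference, which served for names and for the host promoters. In addition, 10 host symbols turned into numbers were restored.

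Both classes were taken from the raw counts. The members, functional lists and tests were chosen with earlier results of these data known. Named members were the 15 of the injured class and 10 of the control class with the highest mean CPM, up to 4 of highest total per list, and up to 4 rows just outside the rule per side; other names were chosen after their values were seen. Counts were fitted with edgeR 4.0.16 in R 4.3.3 (quasi-likelihood, TMM, 3 groups in 1 fit). The default filter, with a minimum count of 10 and a minimum total of 15, left 1471 of 6315 circRNAs, and the Benjamini-Hochberg adjusted p had to be under 0.05. CPM are counts over filtered library totals scaled by TMM. Permutation tests used scipy 1.17.1, and DESeq2 1.42.0 was an alternative. Total counts were 40865 to 65145 per library, and over the filtered, TMM-scaled totals 1 count was worth 18.9 to 29.2 CPM; intervals and floors cover counting error only.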

Additional observations from a re-analysis of the deposited data

How the results depend on the processing

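The injured class of 458 held 161 circRNAs when 3 libraries were asked for, 12 when all 5 were, 109 with a summed count of 10 or more, 217 with the AC libraries left out and 105 with the UUO libraries left out, and from 330 to 800 with 1 library left out. The control class of 96 held 7 when all 3 controls were asked for (also the value for 3 or more), 10 with a summed count of 10 or more, 176 with at most 1 count on the other side, and from 34 to 159 with 1 library left out. Each of these alternatives asks for more or fewer libraries or counts. The difference in detection in a left-out library, injured minus control, turned from -2.52 points for the injured class to 2.73 when 3 libraries were asked for and to 0.762 with 1 library of each side left out. For the control class it went from 13.3 to 8.43 with a summed count of 10 or more and to 7.68 with 1 of each side left out; asking for 3 libraries was not run there, since 2 controls remain. DESeq2 called 103 circRNAs for UUO against control (edgeR 64), 124 for both injuries against control (edgeR 77) and 2 for UUO against AC (edgeR 0), where no filter gave 4 and the fit of those groups alone gave 1; the cause was not tested. With 1 library left out the calls ran from 10 to 75 for UUO, 11 to 38 for AC (49 with all), 42 to 75 for both injuries and 0 to 1 for UUO against AC. Deviations from the group mean had correlations from -0.113 to 0.042 between same-numbered libraries and from -0.042 to 0.113 between others. In groups of 2 or 3 libraries such deviations are tied to each other, so they cannot settle whether the numbers pair libraries. With the replicate block the calls were 12 for UUO, 5 for AC and 30 for both injuries against control, and 0 for UUO against AC. A circRNA with an expected count near 1 per library can be at 0 in a group by counting alone, which limits both classes.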
